A study of Mus musculus with 14 samples.

Results

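The genes described are 36 mouse genes of DNA replication and of the entry into S phase, taken from a list of symbols that covers the replicative helicase, the sliding clamp, the polymerases, nucleotide synthesis, chromatin at the fork and the regulators of the G1/S step. All probe sets annotated to these symbols alone were taken, which gave 79 probe sets for 35 genes, out of 34945 probe sets with a single gene on the array. After a filter on dim probe sets, 34 of the 36 genes were measured with 65 probe sets, among 13579 measured genes in all. The arrays held RNA of sorted skeletal muscle precursor cells of C57BL/6 mice at 3 ages: 5 arrays at 2 months (young), 4 at 12 months (middle-aged) and 5 at 24 months (aged). The cells had been freed from myofibres and sorted as CD29+ and Cxcr4+ and as CD45-, Ter119- and Sca-1-, a gate that enriches for satellite cells, the stem cells of muscle. No transgene or treatment is named in the labels of any array, and the title of the series concerns GDF11 levels and muscle in old age. Whether the arrays stand for separate animals or for pools is not in the labels, and the p-values therefore measure only the spread between these samples, which may be technical.

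Before S phase the origin recognition complex, Cdc6 and Cdt1 load the MCM complex, a ring of related subunits, onto origins, and Cdc45 and the GINS complex then turn it into the active helicase. Replication factor C opens the Pcna ring and places it on DNA, where it holds the polymerases, while primase makes the RNA primers and ligase joins the finished fragments. Many of these genes are transcribed under E2F factors at the G1/S step, and satellite cells of uninjured adult muscle are mostly out of the cell cycle until they are activated.

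Array medians of the intensity lay between 19.0 and 21.2, and with 4 or 5 arrays at each age their number limits the precision. All values below are log2 of these RMA intensities, a scale on which a difference of 1 is a doubling. All 10 satellite cell and myogenic markers, Pax7 and Myod1 among them, lay above the 40th percentile on every array. Their mean ran from 9.44 to 9.67 in young, 9.16 to 9.70 in middle-aged and 9.10 to 9.50 in aged samples. Markers of other cell types were also present, some of them bright at every age. The mean of 8 measured fibro-adipogenic markers ran from 9.18 to 9.46 in young, 9.32 to 9.90 in middle-aged and 9.13 to 10.11 in aged samples. That of 4 measured Schwann cell markers ran from 7.28 to 8.14 in young, 7.59 to 8.17 in middle-aged and 7.15 to 8.85 in aged samples. Of 5 erythroid markers 1 was measured. The mean of 10 tenocyte markers ran from 9.08 to 10.52 in middle-aged and from 9.23 to 10.14 in aged samples, against 6.79 to 7.90 in young samples. The mean of 11 measured myofibre markers ran from 6.91 to 8.04 in middle-aged and from 7.93 to 9.06 in aged samples, against 6.09 to 7.25 in young samples. Of 8 macrophage and leukocyte markers 6 were measured, 4 of them above the percentile on every array (Ptprc and Itgam were not measured), with a mean from 5.32 to 5.62 in middle-aged and from 5.41 to 5.91 in aged samples, against 4.97 to 5.21 in young samples. The mean of 6 pericyte markers ran from 6.66 to 7.56 in middle-aged and from 7.04 to 7.88 in aged samples, against 6.11 to 6.62 in young samples. Of 8 endothelial markers 5 were measured (Pecam1, Tie1 and Emcn were not), with a mean from 5.18 to 5.84 in middle-aged and from 5.23 to 7.54 in aged samples, against 5.18 to 5.69 in young samples. The part of these other transcripts in the results on replication genes was not tested. In bulk samples, fewer cells of a type and less RNA per cell cannot be told apart.

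Of the 36 genes, 28 lay above the 40th percentile of the array on all 14 arrays. The other 6 passed the filter on fewer arrays: Cdc6 on 5, Uhrf1 on 5, Tk1 on 6, Ccne2 on 7, Chaf1b on 8 and Rfc3 on 10. Uhrf1 lay above it on none of the 4 middle-aged arrays, so its values there are close to background. Tyms, thymidylate synthase, was not measured: its 4 own probe sets ran from 2.72 to 3.53 over the 14 arrays, below the percentile (3.79 to 3.96) on each. Chaf1a, the large subunit of chromatin assembly factor 1, had no probe set of its own and was not analysed here.

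RefSeq promoter windows of GRCm38.p6 (250 bases before to 50 bases after the start) were found for 29 of the 36 genes, and 11 of these (37.9%) held at least 1 of 4 E2F words on either strand, against 2.6% of 27025 genes. The words searched were TTTCCCGC, TTTCGCGC, TTTGCCGC and TTTGGCGC, and a gene with several starts counted once. The holders were Mcm3, Mcm5, Mcm6, Mcm7, Cdc6, Cdt1, Rfc3, Pola1, Pold1, Lig1 and Uhrf1. A CCAAT box stood in 58.6% of the 29 genes, against 41.1% of all genes, and the GC box GGGCGG, which can share bases with an E2F word, in 72.4%, against 38.2%. In the list of mitosis genes described further on, 1 of 15 promoters (6.67%) held an E2F word and 13 of 15 (86.7%) a CCAAT box. The 250 bases before the start are shown for 3 MCM genes that hold such a word (in Mcm7 at 1 of its 2 starts), for Rfc3, whose p was the smallest in aged against young samples, and for Prim1, which has no such word and lay at the high end of the changes there. Capitals mark the E2F words on either strand, which overlap in Mcm5 and in the first match of Mcm6. A match is a description of the letters and was not tested as a site of binding.
Mcm5, chr8:75109259-75109508, plus strand: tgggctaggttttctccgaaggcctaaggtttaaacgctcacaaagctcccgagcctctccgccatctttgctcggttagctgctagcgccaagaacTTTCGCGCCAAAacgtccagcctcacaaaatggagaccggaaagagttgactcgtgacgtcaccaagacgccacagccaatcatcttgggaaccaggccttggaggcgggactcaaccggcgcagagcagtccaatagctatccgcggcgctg
Mcm6, chr1:128359706-128359955, minus strand: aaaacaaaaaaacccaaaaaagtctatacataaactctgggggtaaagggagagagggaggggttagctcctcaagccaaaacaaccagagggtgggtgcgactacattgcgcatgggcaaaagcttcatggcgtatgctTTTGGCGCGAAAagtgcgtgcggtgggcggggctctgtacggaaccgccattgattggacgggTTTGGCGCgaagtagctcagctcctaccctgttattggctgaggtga
Mcm7, chr5:138171884-138172133, minus strand: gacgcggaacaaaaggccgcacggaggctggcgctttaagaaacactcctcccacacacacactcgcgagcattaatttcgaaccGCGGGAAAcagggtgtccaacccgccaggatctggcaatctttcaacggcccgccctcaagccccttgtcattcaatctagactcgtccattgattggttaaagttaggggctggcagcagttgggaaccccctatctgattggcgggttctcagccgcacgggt
Rfc3, chr5:151651209-151651458, minus strand: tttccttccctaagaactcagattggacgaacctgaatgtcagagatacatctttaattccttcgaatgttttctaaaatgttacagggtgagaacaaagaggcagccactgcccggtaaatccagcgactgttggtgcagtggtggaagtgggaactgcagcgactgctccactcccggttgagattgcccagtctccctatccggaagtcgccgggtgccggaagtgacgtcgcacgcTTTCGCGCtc
Prim1, chr10:128014965-128015214, plus strand: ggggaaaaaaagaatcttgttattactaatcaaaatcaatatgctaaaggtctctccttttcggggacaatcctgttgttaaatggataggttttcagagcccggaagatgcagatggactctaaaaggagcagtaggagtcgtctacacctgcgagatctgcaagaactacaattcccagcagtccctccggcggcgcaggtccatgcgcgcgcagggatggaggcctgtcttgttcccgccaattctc

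No replication gene passed the test at an adjusted p under 0.05 in any comparison of ages. In aged against young samples 0 of 34 genes passed, with 4.30% of all genes called, in middle-aged against young samples 0 of 34, with 2.97% called, and in aged against middle-aged samples 0 of 34, with 0% called. The F test over the 3 ages called 0 of 34 as well, with 4.16% of all genes called. All tests were limma's moderated two-sided tests with Benjamini-Hochberg adjustment over 13579 genes, and the smallest adjusted p of a member was 0.102 (Rfc3, aged against young). At an unadjusted p under 0.05, 7 of 34 (20.6%) passed in aged against young samples, with 16.6% of all genes, 6 of 34 (17.6%) in middle-aged against young samples, with 16.3%, and 3 of 34 (8.82%) in aged against middle-aged samples, with 9.62%. The 6 genes at middle age were all lower, a direction that held 9.93% of all genes, and the 3 in aged against middle-aged samples were all higher, with 6.38% of all genes. In aged against young samples the 2 ages overlapped in every member (0 of 34), with 5.45% of all genes not overlapping. With both directions counted, the shares of members lay near the shares of all genes.

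The directions differed between the steps. In aged against young samples the median change was -0.01, with 16 genes above 0 and 18 below, beside a median of -0.05 over all genes. In middle-aged against young samples it was -0.22, with 8 genes above 0 and 26 below, beside -0.04 over all genes. In aged against middle-aged samples it was 0.14, with 26 genes above 0 and 8 below, beside 0.01. These comparisons share samples, so the opposite signs of the steps at 12 months are not independent of each other. A test of the late step (24 against 12 months) minus the early step (12 against 2 months) also called 0 of 34 genes, with 0% of all genes called. At an unadjusted p under 0.05 that difference of steps held 4 members (11.8%), Cdc45, Pold1, Rpa1 and Rpa2, all higher in the late step, with 7.65% of all genes higher.

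The 95% intervals set limits on what could have been missed, for the 1 probe set that stood for each gene. Other probe sets are given further on. In aged against young samples, 29 of the 34 intervals lay within a doubling or a halving, beside 11251 of all 13579 genes. The changes ran from -0.63 (Rfc3) to 0.58 (Prim1). In middle-aged against young samples 24 of 34 did, beside 10782 of all genes, with changes from -0.70 (Rfc4) to 0.71 (Mcm4). In aged against middle-aged samples 28 of 34 did, beside 11583 of all genes, with changes from -0.26 (Mcm4) to 0.81 (Rfc4). A gene that misses the threshold is not thereby shown to have the same level at both ages.

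**Figure D1:**
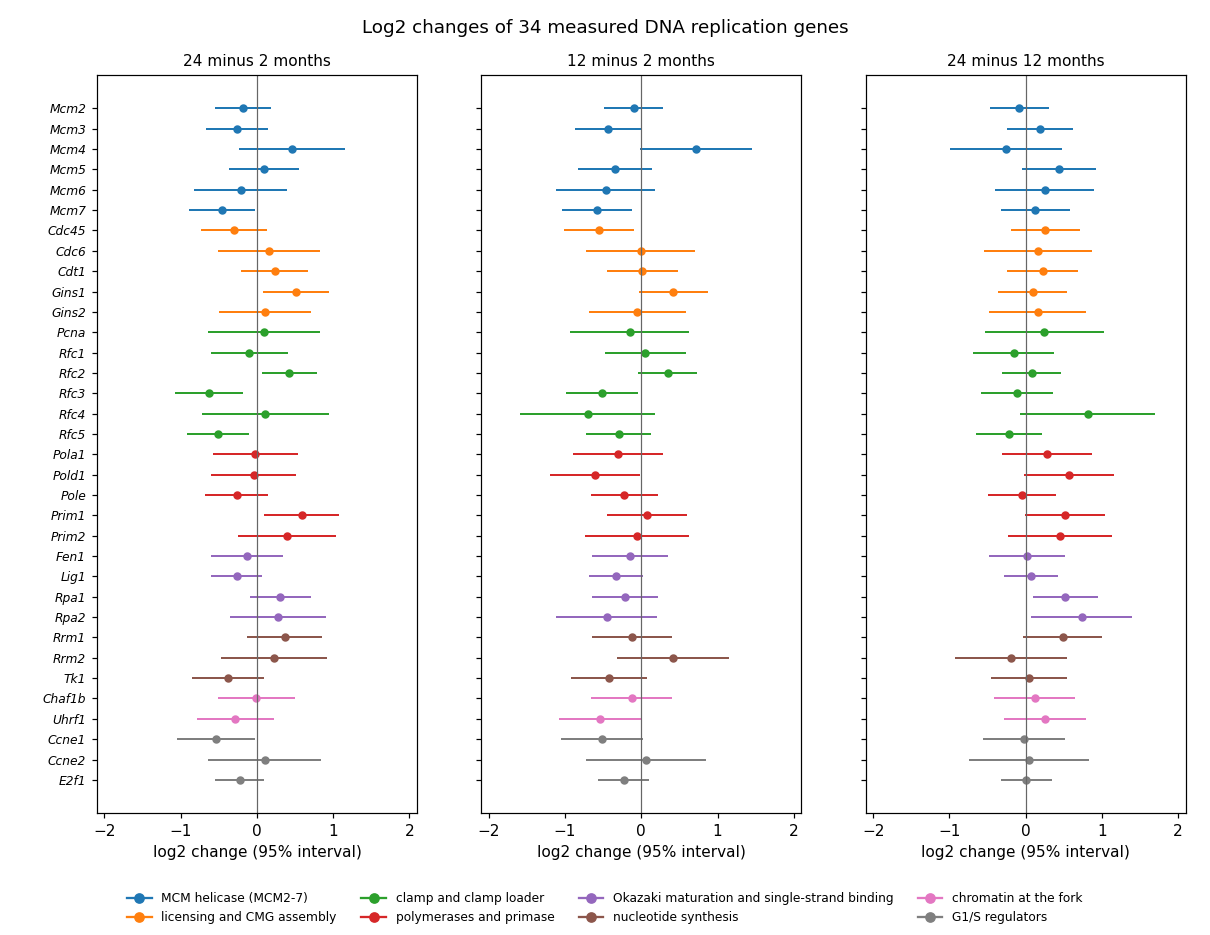
Log2 changes with 95% intervals (horizontal axis) of the 34 measured replication genes, coloured by role, for 24 minus 2, 12 minus 2 and 24 minus 12 months. No gene passed at an adjusted p under 0.05, and the points lie on both sides of 0 in each panel, mostly below it at 12 minus 2 months (26 of 34).

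**Figure D2:**
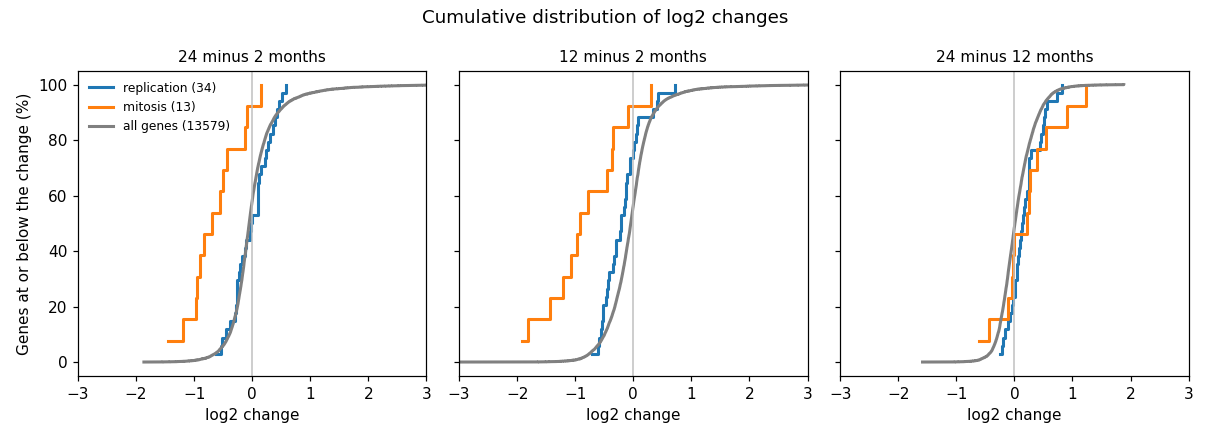
Share of genes at or below each log2 change (vertical axis, percent) for 34 replication genes, 13 mitosis genes and all 13579 genes in the 3 comparisons, on a horizontal axis that stops at 3 on either side of 0. The replication curve follows that of all genes at 24 minus 2 months and lies to its left at 12 minus 2 months, while the mitosis curve lies farther left in both.

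Mcm2 to Mcm7 encode the subunits of the replicative helicase ring, and 0 of 6 passed. Their median change was -0.20 in aged and -0.39 in middle-aged samples, both against young samples, with Mcm4 on the other side of 0 in both. Mcm7 was at 11.21, 10.93, 11.35, 11.11 and 10.62 on the 5 young arrays, at 10.38, 10.91, 10.13 and 10.43 on the 4 middle-aged arrays and at 10.78, 10.71, 10.64, 10.84 and 9.99 on the 5 aged arrays. The older arrays lay mostly below the young ones, but the lowest young array overlapped both older groups. The change was -0.58 ± 0.21 (SE; adjusted p = 0.170) in middle-aged against young samples and -0.45 ± 0.20 (adjusted p = 0.251) in aged against young samples. Aged array 5 was the lowest of the 14, and all 4 probe sets of Mcm7 pointed down at both older ages.

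Mcm3 was at 6.37, 6.03, 6.54, 6.31 and 6.16 on the young arrays, at 5.96, 5.74, 5.71 and 5.95 on the middle-aged arrays and at 5.80, 5.95, 6.36, 6.54 and 5.47 on the aged arrays. All 4 middle-aged arrays lay below all 5 young arrays, whereas the aged arrays spread over the range of both. Its change was -0.44 ± 0.20 (adjusted p = 0.274) in middle-aged against young samples and -0.26 ± 0.19 (adjusted p = 0.541) in aged against young samples. Mcm4 pointed the other way without passing, at 0.71 ± 0.34 (adjusted p = 0.314) in middle-aged against young samples. Its mean was 8.53 ± 0.62 in young, 9.25 ± 0.57 in middle-aged and 8.99 ± 0.50 in aged samples (SD, n = 5, 4 and 5), so the spread within each age was almost as large as the difference. Mcm5 was at 8.61, 8.51, 8.52, 8.55 and 7.63 on the young, 7.70, 8.06, 8.17 and 8.16 on the middle-aged and 9.08, 8.26, 8.25, 8.29 and 8.41 on the aged arrays. The aged arrays all lay above the middle-aged ones (0.43 ± 0.22, adjusted p = 0.551). With the probe set used for each gene, Mcm5 was the only 1 of 34 members (2.94%) whose groups did not overlap in that comparison. Of all genes, 1.41% were higher without overlap. The other kept probe set of Mcm5 did overlap, with middle-aged array 4 at 5.09 and aged array 5 at 4.78. The 95% intervals of Mcm2 and Mcm6 in aged against young samples were -0.53 to 0.16 and -0.81 to 0.39.

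Among the genes that license origins and assemble the active helicase, 0 of 5 passed: Cdc6 and Cdt1, which load the MCM ring, Cdc45, and the GINS subunits Gins1 and Gins2. Cdc45 was at 5.51, 5.28, 5.57, 5.77 and 5.32 on the young arrays, at 4.98, 4.91, 5.10 and 4.75 on the middle-aged arrays and at 5.32, 5.01, 5.75, 5.40 and 4.49 on the aged arrays. Every middle-aged array was below every young array, and the aged arrays spread over both ranges, with aged array 5 below them. Its change was -0.56 ± 0.21 (adjusted p = 0.186) in middle-aged against young samples and -0.30 ± 0.20 (adjusted p = 0.498) in aged against young samples. Gins1 pointed the other way, at 5.53, 4.97, 4.98, 5.45 and 4.99 on the young arrays, 6.20, 5.39, 5.53 and 5.31 on the middle-aged arrays and 6.10, 5.75, 5.44, 5.46 and 5.75 on the aged arrays. Aged arrays were mostly higher than young ones, with young arrays 1 and 4 inside the aged range. The change was 0.51 ± 0.20 (adjusted p = 0.181) in aged against young samples and 0.42 ± 0.21 (adjusted p = 0.338) in middle-aged against young samples. Cdt1, Gins2 and Cdc6 differed by 0.23, 0.11 and 0.16 in aged against young samples, each with a 95% interval that holds 0.

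The clamp and its loader gave the smallest p in aged against young samples, again with 0 of 6 called. Pcna, the sliding clamp, averaged 10.67 ± 0.19 in young, 10.52 ± 0.67 in middle-aged and 10.76 ± 0.79 in aged samples (SD, n = 5, 4 and 5), with a change of 0.09 ± 0.34 in aged against young samples (adjusted p = 0.927). Its spread was wider at the older ages, on both sides of the young range. Middle-aged array 1 was at 11.51 and aged array 4 at 11.92, against a highest young value of 10.88. Middle-aged array 2 was at 10.06 and aged array 2 at 9.95, against a lowest young value of 10.39. Rfc3, a small subunit of the clamp loader, was at 4.49, 4.22, 5.01, 4.31 and 4.72 on the young arrays, 3.75, 3.91, 4.22 and 4.24 on the middle-aged arrays and 3.81, 3.29, 4.18, 4.28 and 4.04 on the aged arrays. Most older arrays were lower than the young ones, with some overlap, and some lay below the dim threshold. Its change was -0.63 ± 0.20 (a 1.55-fold lower level, 95% interval -1.06 to -0.20, adjusted p = 0.102) in aged against young samples and -0.52 ± 0.22 (adjusted p = 0.234) in middle-aged against young samples.

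Rfc5, another small subunit, was at 5.14, 4.84, 5.16, 5.57 and 5.52 on the young arrays, 4.86, 5.16, 4.88 and 4.90 on the middle-aged arrays and 4.94, 4.65, 4.80, 4.16 and 5.11 on the aged arrays. The aged arrays were on average lower, but aged arrays 1 and 5 lay inside the young range. The change was -0.52 ± 0.18 (95% interval -0.91 to -0.12, adjusted p = 0.149) in aged against young samples. Rfc2 pointed up by 0.42 ± 0.16 (adjusted p = 0.189) in the same comparison, while Rfc1, the large subunit, differed by -0.10 ± 0.23. Rfc4 varied most among the replication genes, between 4.29 on middle-aged array 3 and 7.08 on aged array 4. Neither its -0.70 in middle-aged against young samples nor its 0.81 in aged against middle-aged samples passed (adjusted p = 0.436 and 0.544). The other kept probe set of Rfc4 gave 0.11 and 0.28 in these comparisons. The loader's subunits lay on both sides of 0.

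Of the polymerase and primase genes, 0 of 5 passed. Prim1, the catalytic subunit of primase, was at 6.07, 5.23, 6.00, 6.38 and 5.25 on the young arrays, 6.38, 5.55, 5.59 and 5.91 on the middle-aged arrays and 6.29, 6.22, 6.50, 6.43 and 6.41 on the aged arrays. The aged arrays lay close together (mean 6.37 ± 0.11, SD, n = 5) at the top of the range, where 1 young and 1 middle-aged array also lay. The change was 0.58 ± 0.23 (95% interval 0.10 to 1.06, adjusted p = 0.186) in aged against young samples and 0.51 ± 0.24 (adjusted p = 0.519) in aged against middle-aged samples. Prim2, the other primase subunit, differed by 0.40 ± 0.30 in aged against young samples (adjusted p = 0.562). Pold1, the catalytic subunit of polymerase delta, was at 6.77, 6.00, 7.21, 7.004 and 6.40 on the young arrays, 5.96, 6.46, 5.47 and 6.39 on the middle-aged arrays and 6.95, 6.86, 6.85, 6.42 and 6.07 on the aged arrays. The lower values of the middle-aged arrays overlapped both other ages, with changes of -0.61 ± 0.27 (adjusted p = 0.275) in middle-aged against young samples and 0.56 ± 0.27 (adjusted p = 0.531) in aged against middle-aged samples. Pola1 and Pole, the catalytic subunits of polymerases alpha and epsilon, differed by -0.02 ± 0.25 and -0.27 ± 0.19 in aged against young samples.

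Of the genes for single-strand binding and for maturing Okazaki fragments, 0 of 4 passed. Rpa1, the large subunit of replication protein A, was at 9.99, 9.45, 9.79, 10.26 and 9.58 on the young arrays, 9.77, 9.20, 9.49 and 9.94 on the middle-aged arrays and 10.45, 10.15, 10.17, 9.90 and 9.93 on the aged arrays. Its aged values were mostly above the middle-aged ones (0.52 ± 0.19, 95% interval 0.11 to 0.94, adjusted p = 0.434), with 1 of the 4 middle-aged arrays inside the aged range. Rpa2, its partner subunit, was at 6.27, 6.13, 6.35, 6.06 and 6.44 on the young arrays, 5.97, 6.01, 5.49 and 5.71 on the middle-aged arrays and 5.86, 6.28, 7.51, 7.23 and 5.76 on the aged arrays. The middle-aged arrays all lay below the young ones (-0.46 ± 0.31, adjusted p = 0.521), and aged arrays 3 and 4 stood above all others (0.73 ± 0.31 against middle-aged samples, adjusted p = 0.472). Together with Cdc45 and Mcm3, Rpa2 made 3 of 34 members (8.82%) whose middle-aged and young samples did not overlap, all 3 lower at middle age, with 5.07% of all genes lower without overlap. Each of these 3 genes has another kept probe set with a change above 0 in this comparison. Fen1, the flap nuclease, and Lig1, the replicative ligase, differed by -0.13 ± 0.21 and -0.26 ± 0.15 in aged against young samples.

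In nucleotide synthesis, 0 of the 3 measured genes passed. Rrm1, the large subunit of ribonucleotide reductase, averaged 6.40 ± 0.19 in young, 6.28 ± 0.34 in middle-aged and 6.77 ± 0.51 in aged samples (SD, n = 5, 4 and 5), and Rrm2, the small subunit of that enzyme, 8.99 ± 0.33, 9.40 ± 0.85 and 9.21 ± 0.48. Their changes in aged against young samples were 0.37 ± 0.22 (adjusted p = 0.458) and 0.22 ± 0.32 (adjusted p = 0.795). The thymidine kinase Tk1, dim on 8 of 14 arrays, averaged 4.21 ± 0.46 in young, 3.79 ± 0.23 in middle-aged and 3.84 ± 0.32 in aged samples. Of the chromatin genes, 0 of 2 passed: Chaf1b, the middle subunit of chromatin assembly factor 1, differed by -0.01 ± 0.23 and Uhrf1, which reads hemimethylated DNA behind the fork, by -0.28 ± 0.23 in aged against young samples.

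Among the G1/S regulators 0 of 3 passed. Ccne1, cyclin E1, which activates Cdk2 at the start of S phase, averaged 7.06 ± 0.41 in young, 6.55 ± 0.58 in middle-aged and 6.52 ± 0.11 in aged samples (SD, n = 5, 4 and 5). Its changes were -0.52 ± 0.25 (adjusted p = 0.319) in middle-aged and -0.54 ± 0.23 (adjusted p = 0.249) in aged samples, both against young samples. Ccne2, cyclin E2, differed by 0.10 ± 0.34 and E2f1, a transcription factor that activates S phase genes, by -0.22 ± 0.14 in aged against young samples.

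**Figure D3:**
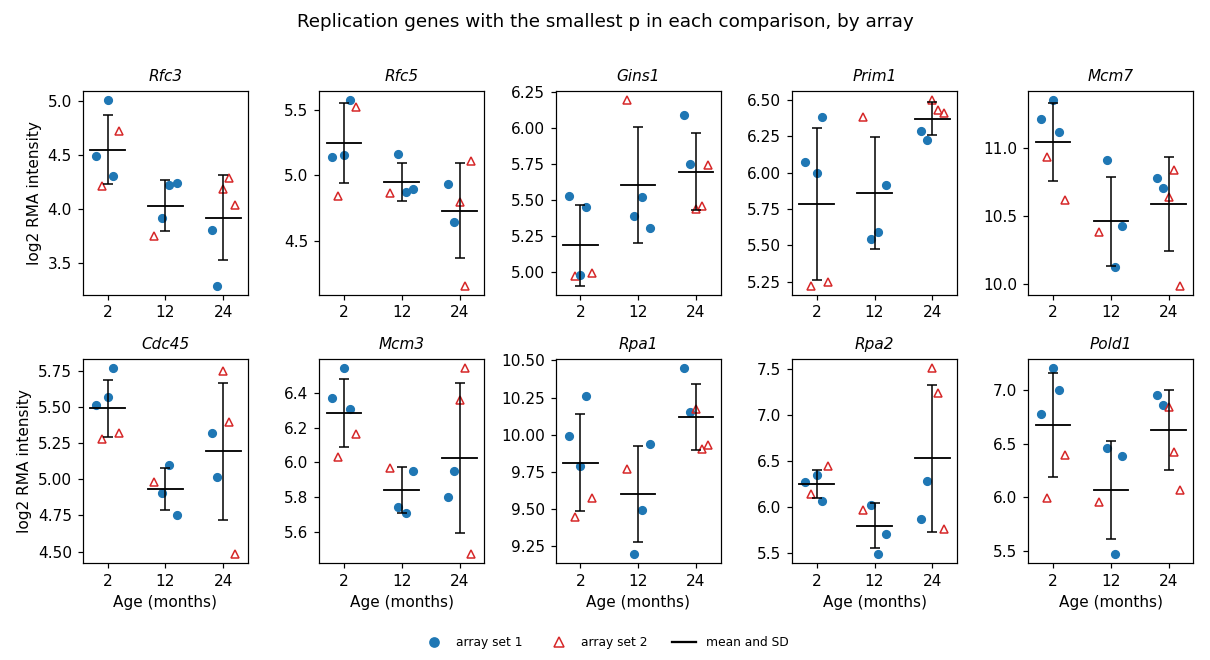
Log2 RMA intensity (vertical axes, each panel with its own range) on every array at 2, 12 and 24 months (horizontal axis) for the 10 replication genes with the smallest p in a comparison, with the mean and SD per age. Filled circles and open triangles mark 2 sets of arrays described in the text, and Cdc45, Mcm3 and Rpa2 show middle-aged values wholly below the young ones.

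Where several probe sets of a gene were kept (22 genes), they did not always point the same way. The signs differed within 8 of the 22 genes in aged against young samples, within 7 in middle-aged against young samples and within 8 in aged against middle-aged samples. At the level of probe sets, 0 of 65 passed in aged against young samples, with 3.10% of all probe sets called, 0 of 65 in middle-aged against young samples, with 1.86% called, and 0 of 65 in aged against middle-aged samples, with 0% called. Fen1 had the widest gap in aged against young samples, -0.13 from its brighter and 0.91 from its dimmer probe set, the second being dim on 5 of 14 arrays. Prim1 pointed up in both, 0.58 from the brighter and 0.98 from the dimmer probe set, the dimmer with an adjusted p of 0.0725 over all probe sets. The probe sets of Rfc3 gave -0.63 and 0.05, so the direction of its change rests on the brighter of them. Rpa1 gave 0.31 and 0.52, and Rrm1 gave 0.37 and -0.27. In middle-aged against young samples the directions of Cdc45, Mcm3, Rpa2 and Rfc4 rest on the probe set chosen. Cdc45 gave -0.56 from the brighter and 0.01 from the other probe set, Rpa2 gave -0.46 and 0.01, and Rfc4 gave -0.70 and 0.11. The 5 probe sets of Mcm3 ran from -0.72 to 0.20, 4 of them below 0. Of the 65 probe sets, 3 (4.62%) were lower without overlap at middle age, with 4.46% of all probe sets.

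**Figure D4:**
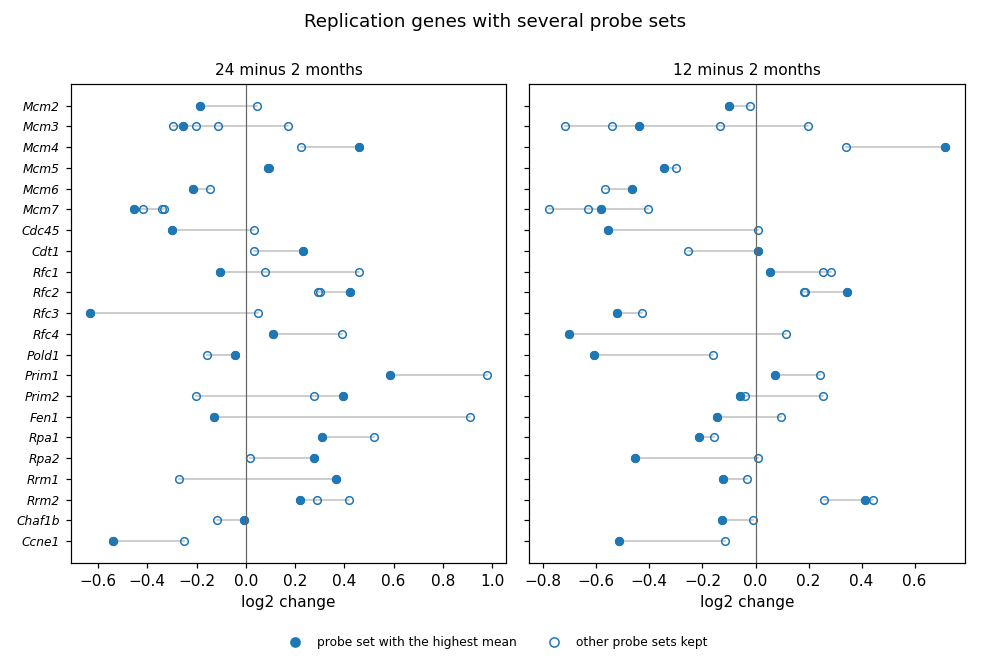
Log2 change (horizontal axis) of each kept probe set for the 22 replication genes with several, at 24 minus 2 and 12 minus 2 months, each panel with its own range. Filled circles are the probe set with the highest mean, used for the gene. Fen1, Rfc3 and Rrm1 have probe sets on both sides of 0 at 24 minus 2 months, and Mcm7, Prim1, Rfc2 and Rpa1 on 1 side only.

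Other genes of the pathway, taken from lists of related functions, gave 0 to 2 calls a list. Over all genes, 1.25% were called lower in aged and 1.22% in middle-aged samples, both against young samples, and the median changes were -0.05 and -0.04. Of 17 measured genes of origin licensing and firing, 0 passed in aged against young samples (median -0.13) and 2 fell in middle-aged against young samples (median -0.28). Orc4, a subunit of the origin recognition complex, was at 5.85, 4.90, 5.26 and 5.19 on the middle-aged arrays, against 5.88, 6.52, 6.05, 6.42 and 6.86 on the young arrays. It fell by 2.06-fold (-1.04 ± 0.23, adjusted p = 0.0240), with middle-aged array 1 just below the lowest young array, and was at 6.10, 5.86, 6.12, 6.62 and 6.41 on the aged arrays. Orc6, another subunit, was at 7.62, 7.17, 6.92 and 7.49 on the middle-aged arrays, against 7.87, 8.08, 8.07, 8.15 and 8.01 on the young arrays, with no overlap. It fell by 1.67-fold (-0.74 ± 0.18, adjusted p = 0.0409), and its aged change was -0.63 ± 0.17 (adjusted p = 0.0524). Of 19 measured fork, polymerase and Okazaki genes, 1 fell in aged against young samples (median -0.21) and 0 passed in middle-aged against young samples (median -0.27). Pola2, the regulatory subunit of polymerase alpha, was at 4.86, 5.22, 5.24, 5.01 and 5.08 on the aged arrays, against 5.93, 5.43, 6.34, 5.75 and 5.52 on the young arrays, with no overlap, and fell by 1.64-fold (-0.71 ± 0.16, adjusted p = 0.0187).

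Of 11 measured genes of nucleotide supply, 1 fell in middle-aged against young samples (median -0.29) and 0 passed in aged against young samples (median -0.05). Umps, which makes uridine monophosphate, was at 7.95, 7.52, 6.96 and 7.04 on the middle-aged arrays, against 8.13, 8.36, 8.09, 8.32 and 8.12 on the young arrays (-0.84 ± 0.21, adjusted p = 0.0466), with no overlap. Of 11 replication-coupled chromatin genes 0 passed in either comparison with young samples (medians -0.14 aged and -0.22 middle-aged). Of 21 measured G1/S control genes, 1 fell in middle-aged against young samples (median -0.34) and 0 passed in aged against young samples (median -0.32). Ccnd1, cyclin D1, which starts the passage through G1, was at 6.98, 7.32, 7.76 and 7.32 on the middle-aged arrays, against 9.49, 7.53, 9.28, 9.52 and 8.21 on the young arrays, a 2.75-fold fall (-1.46 ± 0.35, adjusted p = 0.0360) with overlap at young array 2. Of 6 measured CDK inhibitors 0 passed in either comparison (medians -0.09 aged and -0.15 middle-aged), and no gene of any list passed in aged against middle-aged samples.

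Where no gene of a list passed, the smallest p belonged to genes of several functions. In aged against young samples these were Dctd, a deoxycytidylate deaminase (-0.38 ± 0.15, adjusted p = 0.207), Dnmt1, the maintenance DNA methyltransferase (0.48 ± 0.20, 0.213), Cdk2, the partner of cyclin E (-0.60 ± 0.17, 0.0565), and the CDK4 and CDK6 inhibitor Cdkn2c (-0.39 ± 0.23, 0.436). In middle-aged against young samples they were Rpa3, the small subunit of replication protein A (-0.83 ± 0.23, 0.0690), Rbbp4, a histone-binding subunit of chromatin assembly factor 1 (-0.34 ± 0.12, 0.159), and the CDK inhibitor Cdkn1b (-0.31 ± 0.33, 0.725). In aged against middle-aged samples they were Orc4 (0.92 ± 0.23, 0.283), Pola2 (-0.47 ± 0.17, 0.422), Umps (0.59 ± 0.21, 0.422), Hells, a chromatin remodeller (-0.58 ± 0.18, 0.368), the retinoblastoma gene Rb1 (0.75 ± 0.29, 0.445), the spindle gene Tpx2 (-0.43 ± 0.22, 0.551) and Cdkn2d (0.41 ± 0.34, 0.713). None of these passed, and their changes lay on both sides of 0 in the comparisons of aged samples. The calls of Orc4, Orc6, Umps and Ccnd1 each ended when any of several single arrays was left out (Orc4 young 2, 4 or 5 or middle-aged 2, 3 or 4, adjusted p = 0.0517 to 0.0772; Orc6 any young array or middle-aged 2, 3 or 4, 0.0681 to 0.153; Umps any young array, middle-aged 2, 3 or 4 or aged 1 or 3, 0.0527 to 0.168; Ccnd1 young 1, 3 or 4 or any middle-aged array, 0.0647 to 0.0960), and that of Pola2 without young array 1 (0.0561).

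Genes of mitosis, which act after replication in the same cycle, had median changes farther below 0 than the replication genes at both older ages. Of 13 measured (18 listed), 1 fell in aged against young samples (median -0.69) and 1 in middle-aged against young samples (median -0.92), beside medians of -0.01 and -0.22 over the replication genes and -0.05 and -0.04 over all genes. At an unadjusted p under 0.05, 4 of the 13 were lower in aged and 9 of the 13 in middle-aged samples, beside 1080 and 1348 of all 13579 genes. Cdc20, which switches on the anaphase-promoting complex in mitosis, was at 6.22, 6.23, 6.99, 6.38 and 5.89 on the aged and 5.91, 6.28, 6.69 and 6.54 on the middle-aged arrays, against 8.23, 7.29, 7.97, 8.81 and 6.68 on the young arrays. Young array 5 lay inside both older ranges, and the changes were -1.45 ± 0.33 (adjusted p = 0.0183) in aged and -1.44 ± 0.35 (adjusted p = 0.0383) in middle-aged samples. The first call ended without young array 1 (0.0569) or 3 (0.0548), and the second without young array 1, 3 or 4 or any middle-aged array (0.0735 to 0.0952). Mki67, the proliferation marker, was at 7.86, 4.74, 7.63, 8.55 and 4.70 on the young, 4.96, 4.61, 4.92 and 4.60 on the middle-aged and 4.29, 6.77, 7.70, 5.20 and 6.05 on the aged arrays. Young arrays 1, 3 and 4 and aged array 3 were high and young arrays 2 and 5 low, and the change was -0.69 ± 0.74 (adjusted p = 0.708) in aged and -1.92 ± 0.79 (adjusted p = 0.230) in middle-aged samples, both against young samples. Top2a, the topoisomerase that untangles replicated DNA, differed by -0.89 ± 0.59 (adjusted p = 0.504) in aged and by -1.80 ± 0.63 (adjusted p = 0.156) in middle-aged samples. Cdk1, the mitotic kinase, differed by -1.19 ± 0.36 (adjusted p = 0.0829) in aged and by -1.08 ± 0.38 (adjusted p = 0.168) in middle-aged samples. Young arrays 1, 3 and 4 also differ from young arrays 2 and 5 in the array set defined with the quality measures, where the mitosis values are given by set. Ccnb1 had no probe set of its own.

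The mean of the 34 replication genes varied less between arrays than that of the 13 mitosis genes. It was 6.55, 6.32, 6.52, 6.72 and 6.45 on the young arrays, 6.54, 6.19, 6.15 and 6.40 on the middle-aged arrays and 6.47, 6.36, 6.61, 6.60 and 6.46 on the aged arrays. The 3 ages overlapped throughout, with the 2 lowest values at middle age. The mitosis mean was 5.91, 4.53, 5.73, 6.27 and 4.75 on the young arrays, 4.71, 4.52, 4.63 and 4.48 on the middle-aged arrays and 4.37, 4.93, 5.22, 4.66 and 4.74 on the aged arrays. Young arrays 1, 3 and 4 were the highest of all 14, and young arrays 2 and 5 lay among the older ones.

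**Figure D5:**
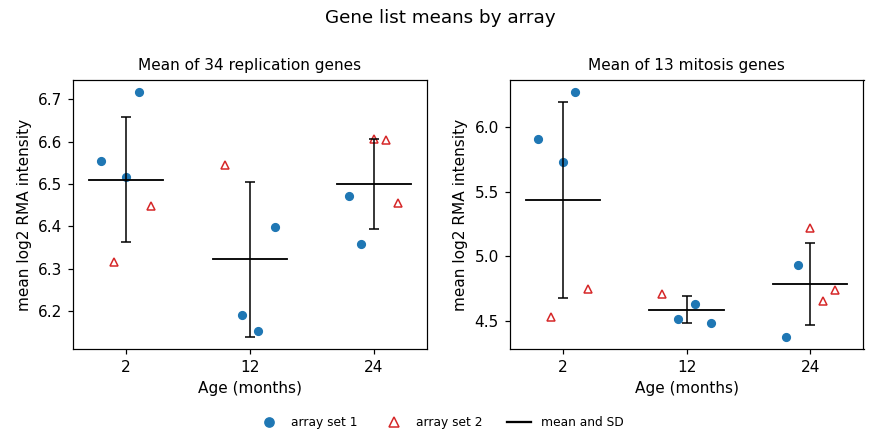
Mean log2 RMA intensity (vertical axes, each panel with its own range) of 34 replication genes and of 13 mitosis genes on every array at 2, 12 and 24 months, with the mean and SD per age. Circles and triangles mark 2 sets of arrays. The mitosis mean is highest on young arrays 1, 3 and 4, whereas the replication mean overlaps between ages.

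The arrays fell into 2 sets that the labels do not name. They were read from the first principal component (31.5% of variance) of age-centred values of 13447 genes outside the replication and pathway lists: set 1 held young arrays 1, 3 and 4, middle-aged arrays 2, 3 and 4 and aged arrays 1 and 2, and set 2 held the other 6. The hybridization controls were lower by 0.72 and the 3 prime minus 5 prime difference of Gapdh and Actb, a measure of RNA quality, by 0.63 in set 2. With age taken into account, 15 of the 34 replication genes were higher and 19 lower in set 2, with a median of -0.09. Over all genes, 6007 of 13579 were higher there, with a median of -0.04. Ccne2 (1.07), Mcm4 (0.87), Pcna (0.85), Rrm2 (0.74) and Rfc4 (0.64) lay highest there, and Fen1 (-0.55), Pold1 (-0.52), Cdt1 (-0.45), Tk1 (-0.44) and Mcm5 (-0.42) lowest. Of the 13 mitosis genes 12 were lower in set 2, with a median of -0.23, and young arrays 1, 3 and 4, where the mitosis mean was highest, are the young arrays of set 1. The median change of the mitosis genes was -1.28 within set 1 and 0.27 within set 2 in aged against young samples, and -1.51 and 0.01 in middle-aged against young samples, the 0.01 again resting on 1 middle-aged array. The part of the array set in the mitosis values was not tested.

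Within set 1 the median change of the replication genes was -0.15 in aged against young samples and -0.37 in middle-aged against young samples, and within set 2 it was 0.12 and 0.15, the second resting on the single middle-aged array there. Within set 1 the test called Rfc3 lower (-1.06 ± 0.25, adjusted p = 0.0393) in aged against young samples. In middle-aged against young samples it called Mcm3, Cdc45 and Uhrf1 lower there, Uhrf1 close to background at middle age, and Mcm4 higher. Within set 2 the test called 0 of 34 in aged against young samples (3 against 2 arrays). No count is given there for middle-aged samples, which have 1 array. The sets were cut along the main axis of spread of these same arrays, which narrows the spread left within a set. Calls within a set are therefore a description, and the share of all genes called there is not given. Pola2 was at -0.37 and Cdc20 at -0.56 within set 2 in aged against young samples, against -0.71 and -1.45 over all arrays, and neither passed there. The 3 prime minus 5 prime difference averaged 3.54 ± 0.51 in aged and 3.85 ± 0.25 in middle-aged samples, against 4.30 ± 0.54 in young samples (SD, n = 5, 4 and 5). Its differences of -0.77 (aged minus young) and -0.46 (middle-aged minus young) had exact two-sided permutation p of 0.0714 and 0.190. With this measure as a covariate, Cdt1 alone passed in aged against young samples (0.72 ± 0.15, adjusted p = 0.0224). With the hybridization controls as a covariate Rrm1 alone passed there (0.55 ± 0.14, adjusted p = 0.0295). Without a covariate Cdt1 was at 0.23 (adjusted p = 0.621) and Rrm1 at 0.37 (adjusted p = 0.458). The share of all genes called with each covariate is not given, so these calls are a description too. The part of RNA quality, hybridization and array set in the results of the fit without them was not tested beyond these values.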

How the data were processed

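Expression was measured on 14 mouse arrays (5, 4 and 5 samples at 2, 12 and 24 months). The authors made the deposited linear intensities with RMA, per the submitters' processing notes (version not given in the sources used here), and log2 was taken here with no further normalization. Of 45101 probe sets, 64 controls, 932 annotated to several genes and 9160 to none were left out. A probe set was kept when above the 40th percentile of its array on at least 4 arrays (23887 kept), and the kept probe set with the highest mean stood for its gene. The model had age as its only factor and was fitted to all 14 arrays with limma 3.58.1 in R 4.3.3. It used moderated two-sided tests, Benjamini-Hochberg adjustment over 13579 genes and a threshold of 0.05. A run of the fit on simulated data drew independent noise for each gene, without array sets, so it does not cover them. Errors are SE of changes and SD of means.

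The members and lists were chosen with earlier results of these data known. Every member is accounted for. Values on every array are given for the 4 members with the smallest p in each pairwise comparison, as no member passed, and Mcm5 was added after its values were seen. From each pathway list the genes that passed, or else the gene with the smallest p, are named, with Mki67, Top2a and Cdk1. Alternatives covered the filter, probe set choice, normalization, variance model, array weights, covariates, array sets, a block by replicate number, the samples fitted, a fold minimum and leaving out each array. Promoter sequences are RefSeq's (GRCm38.p6).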

Additional observations from a re-analysis of the deposited data

Results flagged for a closer look

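Single arrays stood apart from the rest of their age group in 3 of the 99 groups of values examined, of which chance alone gives about 1 in 20. Rfc5 was at 5.16 on middle-aged array 2, while the other middle-aged arrays lay between 4.86 and 4.90. Mcm7 was at 9.99 on aged array 5, while the other aged arrays lay between 10.64 and 10.84. Top2a was at 7.82 on aged array 3, while the other aged arrays lay between 4.71 and 5.52, so the aged mean of this gene rests in part on that array.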

How the results depend on the processing

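The count of replication genes that passed stayed at 0 under most alternatives. In middle-aged against young samples it was 2 with array weights (Mcm7 and Cdc45, both lower), 1 with the array set as a term (Mcm4, higher) and 4 within array set 1. In aged against young samples it was 1 with the 3 prime minus 5 prime covariate, 1 with the hybridization control covariate and 1 within array set 1, and the F test gave 1 in the same settings (Cdt1, Rrm1 and Uhrf1). In aged against middle-aged samples and in the difference of the steps it was 0 under every alternative run. The causes were not tested, and the calls within array set 1 carry the limit given with the sets. The shares of all genes called under these settings are not given. The counts above 0 therefore describe single genes and are no result about the replication genes as a list. Leaving out each array gave counts of 0 to 0 in every comparison, and medians of -0.09 to 0.06 (aged against young), -0.28 to -0.17 (middle-aged against young) and 0.10 to 0.24 (aged against middle-aged). The middle-aged minus young median was -0.37 within array set 1 and 0.15 within array set 2, which holds a single middle-aged array. Median centring of the arrays turned the aged minus young median to 0.01, as near 0 as before. With the replicate block the counts stayed at 0 and the medians were -0.01, -0.21 and 0.17 in the 3 comparisons. Of 13 pairs of same-numbered samples, 5 had deviations with r over 0.1, and r ran from -0.48 to 0.26. Each of these 5 pairs lay within a single array set, and all other pairs joined arrays of different sets. Whether the numbers pair the samples was not tested beyond these values. The block ended the calls of Orc4, Orc6, Umps and Ccnd1. Within set 2 the calls of Pola2 and Cdc20 ended too (-0.37, adjusted p = 0.534, and -0.56, 0.666, in aged against young samples). Without probe sets of shared sequence Cdc20 no longer passed at either older age (-0.82, adjusted p = 0.162, in aged and -0.92, 0.160, in middle-aged samples), and with the mean of the kept probe sets Orc4 and Umps no longer did (-0.59, 0.225, and -0.52, 0.187). Not every alternative that ended a call is named here. Of 30 alternatives, leaving out each array included, the middle-aged call ended in 18 for Umps and 13 for Cdc20. It ended in 12 for Ccnd1, 11 for Orc6 and 10 for Orc4. Array set 2, among these alternatives, holds a single middle-aged array. The aged call ended in 5 of 30 for Cdc20 and 3 of 30 for Pola2.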
